A study of Gallus gallus with 8 samples.

Results

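The 9 genes described here code for actins and tropomyosins of engineered chick muscle tissue. They are the actins *ACTA1*, *ACTC1*, *ACTA2*, *ACTG2*, and *ACTB* and the tropomyosins *TPM1*, *TPM2*, *TPM3*, and *TPM4*. They were taken by gene symbol from a count table of 17775 genes, and all 9 were present, had normalized values, and passed the filter on low counts. RNA was sequenced from 3 tissues at week 3 (day 21 after the start of differentiation) and from 5 tissues at week 1 (day 7). All 8 tissues (*Gallus gallus*) were made from myoblasts of the thighs of E10 chick embryos, which were grown to confluence on micromolded gelatin hydrogels crosslinked with transglutaminase and then switched to a medium with less serum. The weeks therefore differed in labelled time only, and no tissue held motor neurons. The myoblasts were enriched by pre-plating, which leaves some other cells of the thigh in such cultures. The comparison asks how the muscle tissue changed between the weeks. Tissues are named by week and number, 3-1 to 3-3 and 1-1 to 1-5.

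Actin and tropomyosin form the thin filament, along which myosin pulls. Actin monomers polymerize into the filament, and tropomyosin dimers lie end to end in its groove, where they and troponin set when myosin can bind. Vertebrates carry a small family of actin genes whose proteins are nearly identical, with sarcomeric forms (*ACTA1* of skeletal and *ACTC1* of cardiac muscle), smooth muscle forms (*ACTA2* and *ACTG2*), and cytoplasmic forms (*ACTB* among them). Embryonic skeletal muscle is known to use *ACTC1* and, for a time, *ACTA2* besides *ACTA1*.

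The deposited table gave a total of 15447904 to 18902561 estimated counts per tissue at week 3 and 14368710 to 16545497 at week 1. Levels are given as the authors' FPKM-UQ value, a signal computed in these tables by adding 1 to the count and dividing by a factor common to all genes of a tissue, without the length of the gene. Levels of different genes are therefore not ranked here. The 3 week 3 tissues were close to each other. Pairs of them differed by 2.7 to 3.8 times the variance expected from counting alone (chi-square per degree of freedom over the 11043 to 11543 genes with at least 100 counts in a pair), against 5.28 to 54.97 times for pairs of week 1 tissues, and the 4 pairs that held tissue 1-1 had the highest values, 44.26 to 54.97. The sources do not say from how many harvests the tissues came. The p-values measure the spread between these tissues, which at week 3 may be technical, and an effect of harvest or batch cannot be told apart from that of the week.

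Of the 9 genes, 4 were higher at week 3 (*ACTA2*, *ACTG2*, *ACTB*, and *TPM4*), 2 were lower (*ACTA1* and *ACTC1*), and 3 did not pass the test (*TPM1*, *TPM2*, and *TPM3*). A gene was called where the quasi-likelihood test of edgeR gave an adjusted p below 0.05 (Benjamini-Hochberg, over all 14311 genes tested), and 23.5% of these genes were called, 11.5% as higher and 12% as lower at week 3. The median log2 fold change (week 3 over week 1) was 0.72 over the 5 actins, 0.09 over the 4 tropomyosins, and -0.01 over all genes tested. The actin median is the value of *ACTB*, between the falls of *ACTA1* and *ACTC1* and the larger rises of *ACTA2* and *ACTG2*. It describes no shift common to the 5 actins. The genes were chosen by family and not by a value, but the list was drawn up with the differences between the weeks known, the falls of *ACTA1* and *ACTC1* among them. Their calls describe these 8 tissues and nothing is read from their number. When the 3 week 3 tissues were summed into 1 sample, which assumes that it varied like the week 1 tissues, 3.47% of all genes were called. *ACTA2*, *ACTG2*, and *ACTB* were still called then, with adjusted p of 0.000799, 0.0152, and 0.0180 in edgeR's quasi-likelihood test, and *ACTC1* (0.0519), *TPM4* (0.0583), and *ACTA1* (0.389) were not. Without tissue 1-1 the same 6 genes were called, and 38.6% of all genes (5498, against 3367 with all tissues).

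**Figure D1:**
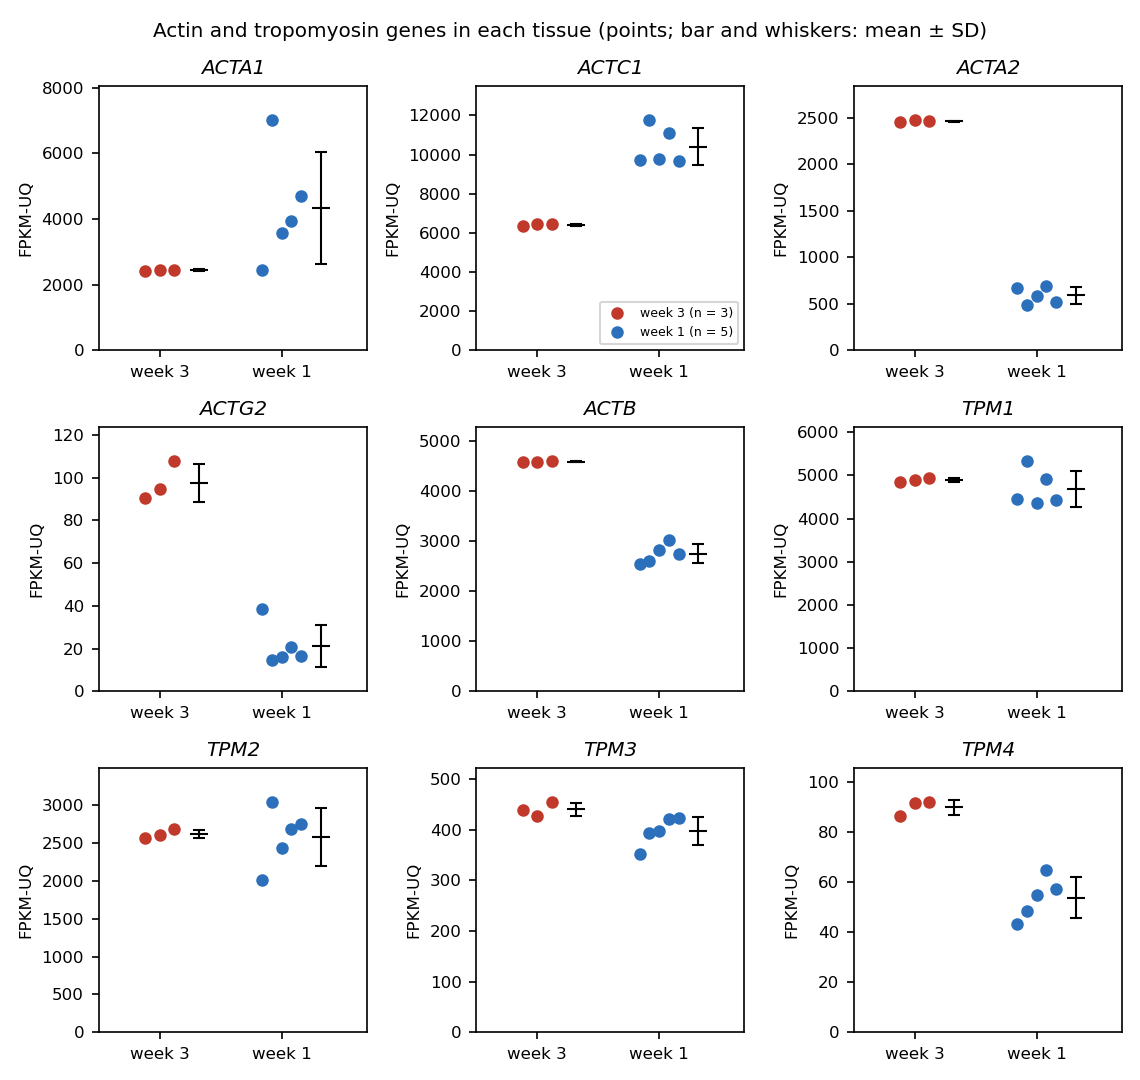
FPKM-UQ value of each of the 9 genes in the 3 tissues of week 3 (red, left) and the 5 tissues of week 1 (blue, right), with 1 point per tissue and the mean ± SD beside the points. *ACTA2* lay between 2450 and 2469 at week 3 and between 489.3 and 696.4 at week 1, while the weeks overlapped for *ACTA1*, *TPM1*, and *TPM2*.

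*ACTC1*, the cardiac alpha-actin, was lower at week 3 in every tissue. It lies on chromosome 5 from 32480478 to 32485437 (+ strand), in the positions of the deposited table (galGal6). *ACTC1* had 6354, 6465, and 6443 FPKM-UQ in tissues 3-1 to 3-3, against 9708, 11740, 9797, 11103, and 9680 FPKM-UQ in tissues 1-1 to 1-5. The highest week 3 tissue was below the lowest week 1 tissue. The mean was 6421 ± 59.1 FPKM-UQ at week 3 and 10406 ± 955.5 FPKM-UQ at week 1 (SD, n = 3 and 5), a ratio of 0.617. *ACTC1* fell by 0.71 on the log2 scale (SE 0.08, adjusted p = 0.000119 in edgeR's quasi-likelihood test).

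*ACTA1*, the skeletal alpha-actin and the main actin of adult skeletal muscle, had a lower mean at week 3 but no clean separation of the weeks. The gene lies on chromosome 3 from 40087452 to 40090518 (- strand). *ACTA1* had 2424, 2456, and 2462 FPKM-UQ in tissues 3-1 to 3-3, against 2459, 6997, 3580, 3942, and 4686 FPKM-UQ in tissues 1-1 to 1-5. Tissue 1-1 lay within the range of week 3, and the other 4 week 1 tissues lay above it. The mean was 2447 ± 20.4 FPKM-UQ at week 3 and 4333 ± 1692 FPKM-UQ at week 1 (SD, n = 3 and 5), and the gene fell by 0.84 on the log2 scale (SE 0.25, adjusted p = 0.0303 in edgeR's quasi-likelihood test). An exact two-sided permutation test of the FPKM-UQ values gave p = 0.0714. The call was lost in 10 of 17 alternatives, among them DESeq2 (adjusted p = 0.0522) and leaving out tissue 1-5 (0.0606) or any 1 week 3 tissue (0.0997 to 0.101), over a range of 3.65e-06 to 0.389. The lowest of these p-values came without tissue 1-1, where the fall was 0.98 on the log2 scale, and the fall stayed between 0.60 and 0.98 in all 17.

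The balance between the sarcomeric actins did not differ detectably between the weeks. *ACTC1* made up 72.4 ± 0.0634% of the counts of *ACTA1* and *ACTC1* together at week 3 and 71.4 ± 6.56% at week 1 (SD, n = 3 and 5). A share of counts is not a share of molecules, since a longer transcript gives more counts and lengths were not used here. The share was 72.39, 72.47, and 72.35% in tissues 3-1 to 3-3, against 79.79, 62.66, 73.24, 73.80, and 67.38% in tissues 1-1 to 1-5. All week 3 tissues lay inside the week 1 range. The difference was 1.03 percentage points (exact two-sided permutation test p = 0.893, adjusted p = 0.893 over the 7 shares compared), and it ran from -1.15 to 3.13 percentage points when tissues were left out in turn.

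Sarcomeric actin as a whole took a smaller part of the RNA at week 3. *ACTA1* and *ACTC1* together held 0.901 to 0.914% of all counts at week 3 and 1.26 to 1.79% at week 1, with no overlap. In bulk RNA, fewer cells of a type and less RNA per cell cannot be told apart. Of the skeletal muscle markers, 5 of the 9 listed were matched by symbol, and their summed level was 6907 to 7111 CPM (counts scaled to the TMM-adjusted library total) at week 3 and 7384 to 8852 CPM at week 1. *MYOD1*, a myogenic transcription factor, fell by 0.51 on the log2 scale (SE 0.10, adjusted p = 0.00388 in edgeR's quasi-likelihood test), and *ACTN2*, the Z-disc alpha-actinin that anchors thin filaments, fell by 0.64 (SE 0.08, adjusted p = 0.000252). *DES*, the muscle intermediate filament, averaged 4451 CPM at week 3 and 4355 CPM at week 1 and *MYOG*, another myogenic factor, averaged 194.8 and 175.5 CPM, and neither passed the test. *ACTN2* averaged 2078 CPM at week 3 and 3242 CPM at week 1, and the sum of the markers fell mainly through this gene. *MYOD1* averaged 187.9 and 268.0 CPM and *CHRNA1*, an acetylcholine receptor subunit, 95.4 and 104.1 CPM. *CHRNA1* did not pass the test (adjusted p = 0.770 in edgeR's quasi-likelihood test). Its week 1 values ran from 77.9 to 188.3 CPM, with tissue 1-1 the highest. The part of cell makeup in the actin differences was not tested.

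*ACTA2*, the smooth muscle alpha-actin, was 4.15 times as high at week 3 by the ratio of means. It lies on chromosome 6 from 20062668 to 20118933 (- strand). *ACTA2* had 2450, 2469, and 2459 FPKM-UQ in tissues 3-1 to 3-3, against 669.4, 489.3, 587.7, 696.4, and 521.1 FPKM-UQ in tissues 1-1 to 1-5. The weeks were far apart and the lowest week 3 tissue was above every week 1 tissue. The mean was 2460 ± 9.69 FPKM-UQ at week 3 and 592.8 ± 90.1 FPKM-UQ at week 1 (SD, n = 3 and 5), and the log2 fold change was 2.04 (SE 0.11, adjusted p = 4.6e-07 in edgeR's quasi-likelihood test). *FAS*, a death receptor gene, lies inside the *ACTA2* span on the other strand, with 12324 bases in common. *FAS* had 235 to 318 counts at week 3 and 176 to 254 at week 1.

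*ACTG2*, the smooth muscle gamma-actin typical of gut muscle, was also higher at week 3. Its locus is on chromosome 22 from 3827641 to 3830850 (+ strand). *ACTG2* had 90.6, 94.7, and 107.5 FPKM-UQ in tissues 3-1 to 3-3, against 38.4, 14.5, 16.2, 20.9, and 16.4 FPKM-UQ in tissues 1-1 to 1-5. Tissue 1-1 stood above the other week 1 tissues and below all of week 3. The mean was 97.6 ± 8.81 FPKM-UQ at week 3 and 21.3 ± 9.87 FPKM-UQ at week 1 (SD, n = 3 and 5), and the log2 fold change was 2.18 (SE 0.25, adjusted p = 9.77e-05 in edgeR's quasi-likelihood test) and 2.51 without tissue 1-1. The gene had 1497 to 1820 counts at week 3 and 204 to 587 at week 1. The actin transcripts are so alike that reads could have been assigned to the wrong member, and how the authors' software shared such reads is not given in the sources used here. The values of *ACTG2* rest on the fewest counts of the 5. A pseudogene without a symbol lies within 500 bases of the *ACTG2* span on the same strand, from 3831056 to 3832424, with no overlap. The pseudogene had 166 to 272 counts at week 3 and 120 to 194 at week 1.

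Other genes of smooth muscle did not all move with these actins. Of 7 smooth muscle markers, *TAGLN* and *LMOD1* were higher at week 3, *SMTN* was lower, and 4 did not pass the test. For comparison, 11.5% of all genes tested were called higher and 12% lower. Nothing is read from the number of marker calls. *TAGLN*, the actin-binding protein transgelin, ranged over 652.9 to 665.8 CPM at week 3 and 85.1 to 166.1 CPM at week 1, a log2 fold change of 2.51 (SE 0.16, adjusted p = 1.81e-06 in edgeR's quasi-likelihood test). *LMOD1*, a leiomodin that nucleates actin filaments in smooth muscle, had a log2 fold change of 1.30 (SE 0.17, adjusted p = 0.000279), while *SMTN*, the smooth muscle cytoskeletal protein smoothelin, fell by 0.44 (SE 0.11, adjusted p = 0.0122). The defining smooth muscle myosin *MYH11* averaged 3.53 CPM at week 3 and 2.66 CPM at week 1 (adjusted p = 0.354), *CNN1* averaged 66.6 and 67.4 CPM (adjusted p = 0.928), and *MYOCD*, the coactivator of smooth muscle and heart genes, averaged 7.37 and 6.78 CPM (adjusted p = 0.693). The summed level of the list was 1032 to 1062 CPM at week 3 and 491.3 to 654.9 CPM at week 1. *TAGLN* alone averaged 657.9 CPM at week 3 and 115.7 CPM at week 1, and the sum rose through this gene. *LMOD1* averaged 51.6 and 21.0 CPM, *SMTN* 104.9 and 142.0 CPM, and *SYNPO2* 151.2 and 173.5 CPM. The part of these markers in the rise of *ACTA2* and *ACTG2* was not tested.

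*ACTA2* is also known from activated fibroblasts and from heart precursors. Markers of these and of endothelial cells are given here, and nothing is read from their number of calls. Among all genes tested, 11.5% were called higher and 12% lower at week 3. Of 8 fibroblast markers tested, *POSTN*, a matricellular protein, was higher at week 3 (log2 fold change 0.49, SE 0.07, adjusted p = 0.000595 in edgeR's quasi-likelihood test) and 4 were lower: *PDGFRA*, *LUM*, *COL3A1*, and *DCN*. Their summed level was 22538 to 23379 CPM at week 3, inside the 20484 to 31572 CPM of week 1. The low end of the week 1 range was tissue 1-1, and every other week 1 tissue lay above all week 3 tissues. Most of the sum was collagen, with *COL1A1* averaging 9945 CPM at week 3 and 11893 CPM at week 1 and *COL1A2* 7114 and 8043 CPM. *PDGFRA*, a growth factor receptor of fibroblasts, fell by 1.60 on the log2 scale (SE 0.20, adjusted p = 0.000164). Of 5 cardiac markers matched, 3 were tested and *GATA4*, a transcription factor of heart and gut, was higher (log2 fold change 2.14, SE 0.71, adjusted p = 0.0486) at 0.963 CPM at week 3 and 0.204 CPM at week 1. *NPPA* averaged 12.7 CPM at week 3 and 7.86 CPM at week 1 (log2 fold change 0.69, adjusted p = 0.0635 in edgeR's quasi-likelihood test). *HAND2* averaged 3.38 and 3.09 CPM (adjusted p = 0.712 in the same test), and neither gene passed. *NKX2-5*, a defining cardiac factor, was at or near 0, with at most 0.103 CPM at week 3 and 0.357 CPM at week 1. Of 4 endothelial markers matched, 3 were tested and *PECAM1* was lower. The sum of the 4 was 24.5 to 27.9 CPM at week 3 and 33.7 to 41.0 CPM at week 1. Most of it was *PECAM1*, which averaged 19.9 CPM at week 3 and 28.8 CPM at week 1. *CDH5* averaged 5.57 and 6.95 CPM, and *KDR* 0.748 and 0.599 CPM, and neither passed the test. *TEK*, not tested, averaged 0.477 and 0.207 CPM. The part of these cell types in the actin values was not tested.

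*ACTB*, the cytoplasmic beta-actin often used as a reference gene, was higher in every week 3 tissue. Its locus is on chromosome 14 from 4573328 to 4577557 (- strand). *ACTB* had 4575, 4591, and 4593 FPKM-UQ in tissues 3-1 to 3-3, against 2547, 2597, 2823, 3022, and 2754 FPKM-UQ in tissues 1-1 to 1-5. The values within each week were close, and the weeks did not overlap. The mean was 4586 ± 9.70 FPKM-UQ at week 3 and 2749 ± 189.8 FPKM-UQ at week 1 (SD, n = 3 and 5), a ratio of 1.67, with a log2 fold change of 0.72 (SE 0.07, adjusted p = 2.89e-05 in edgeR's quasi-likelihood test). The gene that the table calls *ACTG1*, the other cytoplasmic actin, averaged 1911 ± 16.3 FPKM-UQ at week 3 and 2027 ± 188.4 FPKM-UQ at week 1, a log2 fold change of -0.10 (SE 0.08, adjusted p = 0.418, 95% interval -0.28 to 0.08). The log2 ratio of *ACTB* to *ACTG1* was higher by 0.82 at week 3 (p = 0.0357 in an exact two-sided permutation test, adjusted p = 0.0714 over 8 ratios). Gene length cancels from this difference between the weeks. The table places *ACTG1* on chromosome 18 and the RefSeq annotation of a later assembly on another chromosome, so the identity of that locus is uncertain.

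Within the 5 actins listed, the counts at week 3 were spread more evenly. *ACTG1* is not among these 5. With it in the denominator, the share of *ACTA2* and *ACTG2* differed by 11.2 percentage points between the weeks and that of *ACTB* by 11.8. *ACTA2* and *ACTG2* together held 15.98, 15.95, and 15.98% of the counts of the 5 actins in tissues 3-1 to 3-3, against 4.59, 2.31, 3.59, 3.82, and 3.04% in tissues 1-1 to 1-5, and the weeks were well apart. The difference was 12.5 percentage points (exact two-sided permutation test p = 0.0357, adjusted p = 0.0833 over the 7 shares). With 3 tissues against 5, 0.0357 is the smallest p that the test can give, so no share could pass 0.05 after adjustment unless most of the 7 reached it. *ACTB* held 28.8, 28.6, and 28.6% at week 3, against 16.5, 11.9, 16.8, 16.1, and 15.6% at week 1, a difference of 13.3 percentage points with the same p-values. Tissue 1-2, with the lowest *ACTB* share, had the highest *ACTA1* value. The 2 sarcomeric actins held the rest, 55.2 to 55.5% at week 3 and 78.9 to 85.8% at week 1. The 5 genes together took 1.63 to 1.65% of all counts at week 3, inside the 1.60 to 2.08% of week 1.

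**Figure D2:**
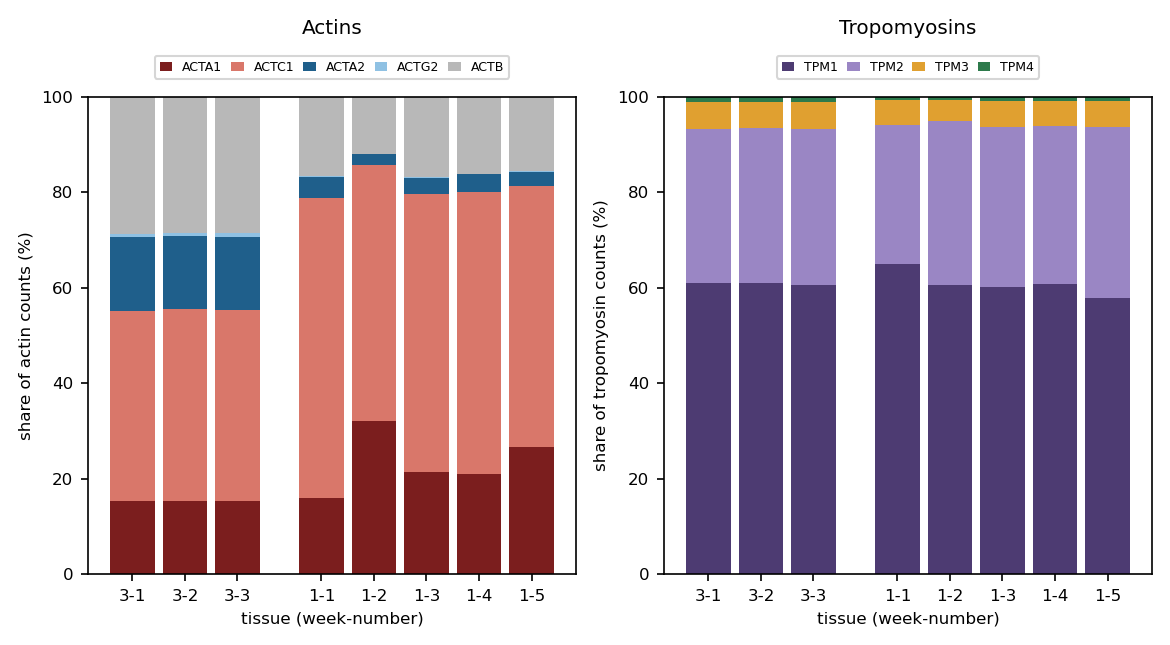
Share of each gene in the counts of the 5 actins (left panel) and of the 4 tropomyosins (right panel), in percent, with 1 stacked bar per tissue and week 3 left of week 1. *ACTA1* and *ACTC1* together filled 55.2 to 55.5% of the actin bars at week 3 and 78.9 to 85.8% at week 1, and *TPM1* filled 60.6 to 61.1% of the tropomyosin bars at week 3 and 57.8 to 64.9% at week 1.

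Ratios between pairs of genes restate the same counts, and gene length cancels from their differences between the weeks. The log2 ratio of *ACTA2* to *ACTC1* was higher by 2.76 at week 3 and that of *ACTB* to *ACTC1* by 1.43, each with no overlap between the weeks (exact two-sided permutation test p = 0.0357, adjusted p = 0.0714 over 8 ratios). The ratio of *ACTC1* to *ACTA1* differed by 0.05 (p = 0.964 in the same exact test), and its SD was 0.0046 at week 3 and 0.47 at week 1. The ratio of the smooth muscle actins, *ACTG2* to *ACTA2*, differed by 0.23 (p = 0.5 in the same exact test), with overlapping weeks.

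*TPM1*, the alpha-tropomyosin of striated muscle, did not separate the weeks. The gene lies on chromosome 10 from 4617488 to 4636540 (- strand). *TPM1* had 4846, 4901, and 4945 FPKM-UQ in tissues 3-1 to 3-3, against 4449, 5319, 4358, 4924, and 4418 FPKM-UQ in tissues 1-1 to 1-5. The week 3 values lay inside the week 1 range. The mean was 4897 ± 49.5 FPKM-UQ at week 3 and 4694 ± 416.3 FPKM-UQ at week 1 (SD, n = 3 and 5), and the log2 fold change was 0.05 (SE 0.08, adjusted p = 0.720 in edgeR's quasi-likelihood test, 95% interval -0.13 to 0.22).

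*TPM2*, the beta-tropomyosin, which pairs with the alpha form in skeletal muscle, overlapped between the weeks as well. It lies on chromosome Z from 9207127 to 9219171 (+ strand). *TPM2* had 2567, 2603, and 2675 FPKM-UQ in tissues 3-1 to 3-3, against 2007, 3031, 2431, 2686, and 2746 FPKM-UQ in tissues 1-1 to 1-5. Week 3 lay in the middle of week 1. The mean was 2615 ± 55.2 FPKM-UQ at week 3 and 2580 ± 384.9 FPKM-UQ at week 1 (SD, n = 3 and 5), and the log2 fold change was 0.01 (SE 0.11, adjusted p = 0.979 in edgeR's quasi-likelihood test, 95% interval -0.23 to 0.24). Chromosome Z is a sex chromosome of birds, and the sex of the embryos is not given in the sources used here.

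*TPM3*, known in mammals as the tropomyosin of slow muscle and, through other transcripts, of the cytoskeleton, lies on chromosome 25 from 2866149 to 2882181 (- strand). *TPM3* had 437.9, 427.5, and 453.3 FPKM-UQ in tissues 3-1 to 3-3, against 352.6, 393.0, 396.3, 419.8, and 423.1 FPKM-UQ in tissues 1-1 to 1-5. The lowest week 3 tissue was just above the highest week 1 tissue. The mean was 439.6 ± 13.0 FPKM-UQ at week 3 and 397.0 ± 28.2 FPKM-UQ at week 1 (SD, n = 3 and 5). The log2 fold change of 0.13 did not pass the test (SE 0.07, adjusted p = 0.194 in edgeR's quasi-likelihood test, 95% interval -0.02 to 0.28). It did pass, at 0.20 and an adjusted p of 0.0407, when only the library totals were used for scaling, a setting that moved the median of all genes to 0.06, and its adjusted p ran from 0.0407 to 0.679 over the 17 alternatives.

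*TPM4*, known in mammals mainly as a tropomyosin of the cytoskeleton, was the only tropomyosin gene called. Its locus is on chromosome 28 from 4532733 to 4540969 (- strand). *TPM4* had 86.5, 91.5, and 91.8 FPKM-UQ in tissues 3-1 to 3-3, against 43.5, 48.6, 54.8, 64.9, and 57.3 FPKM-UQ in tissues 1-1 to 1-5. All week 3 tissues were above all week 1 tissues. The mean was 89.9 ± 2.97 FPKM-UQ at week 3 and 53.8 ± 8.23 FPKM-UQ at week 1 (SD, n = 3 and 5), a ratio of 1.67, and the log2 fold change was 0.73 (SE 0.11, adjusted p = 0.000497 in edgeR's quasi-likelihood test). *RAB8A*, a small GTPase gene on the same strand, shares 4768 bases with the *TPM4* span and had 1429 to 1654 counts at week 3 and 1115 to 1532 at week 1, so some reads could belong to either gene.

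Counted by whether the weeks overlapped in FPKM-UQ, *ACTC1*, *ACTA2*, *ACTG2*, *ACTB*, *TPM3*, and *TPM4* did not overlap and *ACTA1*, *TPM1*, and *TPM2* did. Of all genes tested, 29.9% did not overlap. The values are per gene, and the transcript forms that each tropomyosin gene makes by splicing were not told apart.

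**Figure D3:**
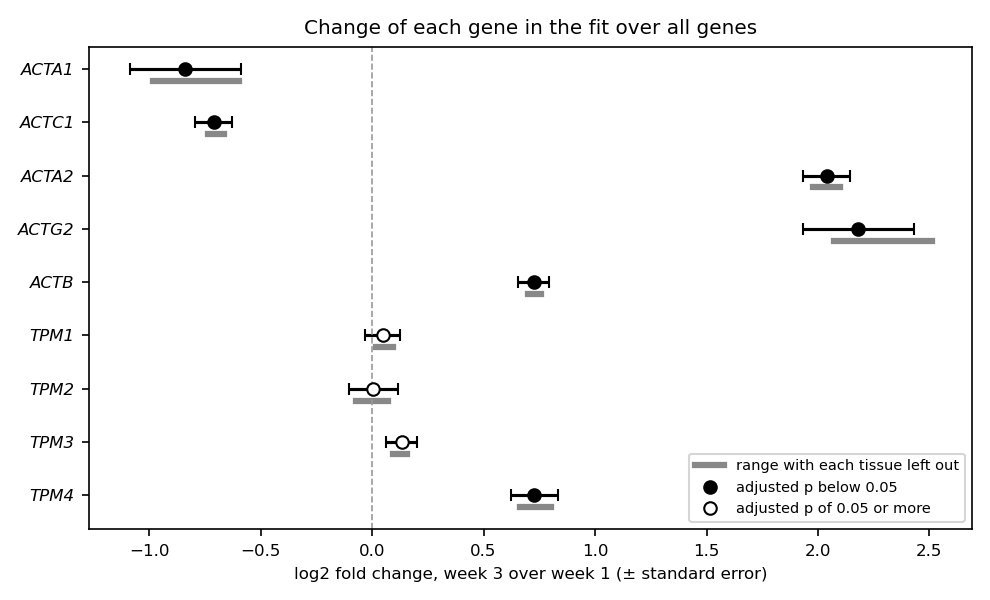
Log2 fold change (week 3 over week 1) of each of the 9 genes with its standard error, filled where the adjusted p was below 0.05, above a gray bar for the range when each tissue was left out in turn. *ACTA2* at 2.04 and *ACTG2* at 2.18 lie far to the right, *ACTA1* at -0.84 and *ACTC1* at -0.71 to the left, and the gray bar of *TPM2* spans 0, from -0.07 to 0.07.

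The shares of *TPM1*, *TPM2*, and *TPM3* in the tropomyosin counts did not separate the weeks. *TPM1* made up 60.9 ± 0.296% at week 3 and 60.8 ± 2.58% at week 1 (SD, n = 3 and 5, difference 0.0514 percentage points, exact two-sided permutation test p = 0.821, adjusted p = 0.893 over the 7 shares). *TPM2* made up 32.5 ± 0.222% at week 3 and 33.3 ± 2.47% at week 1 (exact permutation test p = 0.571, adjusted p = 0.8), and *TPM3* 5.47 ± 0.120% and 5.16 ± 0.423% (p = 0.214, adjusted p = 0.375). *TPM4* was a small part in both weeks, with 1.09, 1.14, and 1.12% in tissues 3-1 to 3-3, against 0.634, 0.552, 0.756, 0.801, and 0.749% in tissues 1-1 to 1-5. Its share did not overlap between the weeks, and the difference was 0.419 percentage points (exact permutation test p = 0.0357, adjusted p = 0.0833). The log2 ratio of *TPM4* to *TPM1* was higher by 0.69 at week 3 (exact permutation test p = 0.0357, adjusted p = 0.0714 over the 8 ratios), and the ratios of *TPM2* and *TPM3* to *TPM1* differed by -0.03 and 0.08. The 4 genes together took 0.814 to 0.833% of all counts at week 3, inside the 0.712 to 0.839% of week 1.

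The week 1 tissues varied most in *ACTA1* and *ACTG2*. The highest week 1 tissue had 2.85 times the *ACTA1* value and 2.64 times the *ACTG2* value of the lowest, against 1.51 for *TPM2*, 1.49 for *TPM4*, 1.42 for *ACTA2*, and 1.19 to 1.22 for the other 4 genes. At week 3 these ratios were 1.00 to 1.06 for 8 genes and 1.19 for *ACTG2*. Tissue 1-1 was the lowest week 1 tissue for 5 of the 9 genes (*ACTA1*, *ACTB*, *TPM2*, *TPM3*, and *TPM4*) and the highest for *ACTG2*, while tissue 1-2 was the highest for *ACTA1*, *ACTC1*, *TPM1*, and *TPM2*. Against the variance expected from counting, the spread of *ACTA1* was 1.59 times as large at week 3 and 9726 times as large at week 1, and that of *ACTB* 0.554 and 170.6 times.

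Genes that build, cap, and bind actin filaments were set beside the actins. Over all genes tested, 23.5% were called, 11.5% as higher and 12% as lower at week 3. These lists and the marker lists were chosen with earlier results of these data known, and nothing is read from their number of calls. Of 7 calponin, transgelin, and caldesmon genes, whose proteins bind along the actin filament, 4 were higher at week 3 in edgeR's quasi-likelihood test and 3 did not pass, with a median log2 fold change of 0.52. These were *TAGLN*, *CALD1* (0.84, SE 0.07, adjusted p = 1.52e-05), *CNN2* (0.71, SE 0.08, adjusted p = 0.000121), and *CNN3* (0.52, SE 0.06, adjusted p = 6.84e-05). *CALD1*, caldesmon, blocks myosin binding on smooth muscle and cytoplasmic filaments, and *CNN2* and *CNN3* are calponins found outside smooth muscle too. The 3 that did not pass were *CNN1*, *TAGLN2*, and *TAGLN3*.

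Of 13 actin nucleation genes tested, 6 were higher at week 3 and 1 was lower, with a median log2 fold change of 0.11. The list holds 8 genes of the Arp2/3 complex, which starts branched filaments, and the 6 were among them, while *ARPC2* (0.08, adjusted p = 0.402 in edgeR's quasi-likelihood test) and *ARPC5* (-0.11, adjusted p = 0.260) did not pass. The largest rises were *ARPC4* (0.62, SE 0.09, adjusted p = 0.000739 in edgeR's quasi-likelihood test), *ARPC1A* (0.38, SE 0.06, adjusted p = 0.000859), *ARPC1B* (0.36, SE 0.11, adjusted p = 0.0293), and *ACTR3* (0.33, SE 0.06, adjusted p = 0.00280). *FHOD3*, a formin of the sarcomere, fell by 0.40 on the log2 scale (SE 0.11, adjusted p = 0.0229). These changes were smaller than those of the smooth muscle actins.

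Of 11 genes for the ends and length of the thin filament, 2 were higher (*LMOD1* and *TMOD4*) and 2 were lower (*TMOD1* and *TMOD3*), with a median log2 fold change of 0.03. Tropomodulins cap the pointed end of the filament, where they bind tropomyosin. *TMOD4*, the skeletal muscle form, had a log2 fold change of 0.87 (SE 0.20, adjusted p = 0.00814 in edgeR's quasi-likelihood test), and *TMOD1*, the striated muscle form, fell by 0.32 (SE 0.09, adjusted p = 0.0212). Of 8 genes for actin monomer binding and severing, *DSTN*, which takes filaments apart, was higher (0.38, SE 0.06, adjusted p = 0.00151), and *GSN*, the severing protein gelsolin, fell by 0.57 (SE 0.12, adjusted p = 0.00518). Of 5 genes for SRF, the transcription factor that binds actin gene promoters, and its cofactors, only *ABRA* was called. *ABRA*, which binds actin in striated muscle and activates SRF, fell by 0.76 (SE 0.13, adjusted p = 0.00124), while *SRF* itself averaged 86.6 CPM at week 3 and 99.6 CPM at week 1 (adjusted p = 0.0508).

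**Figure D4:**
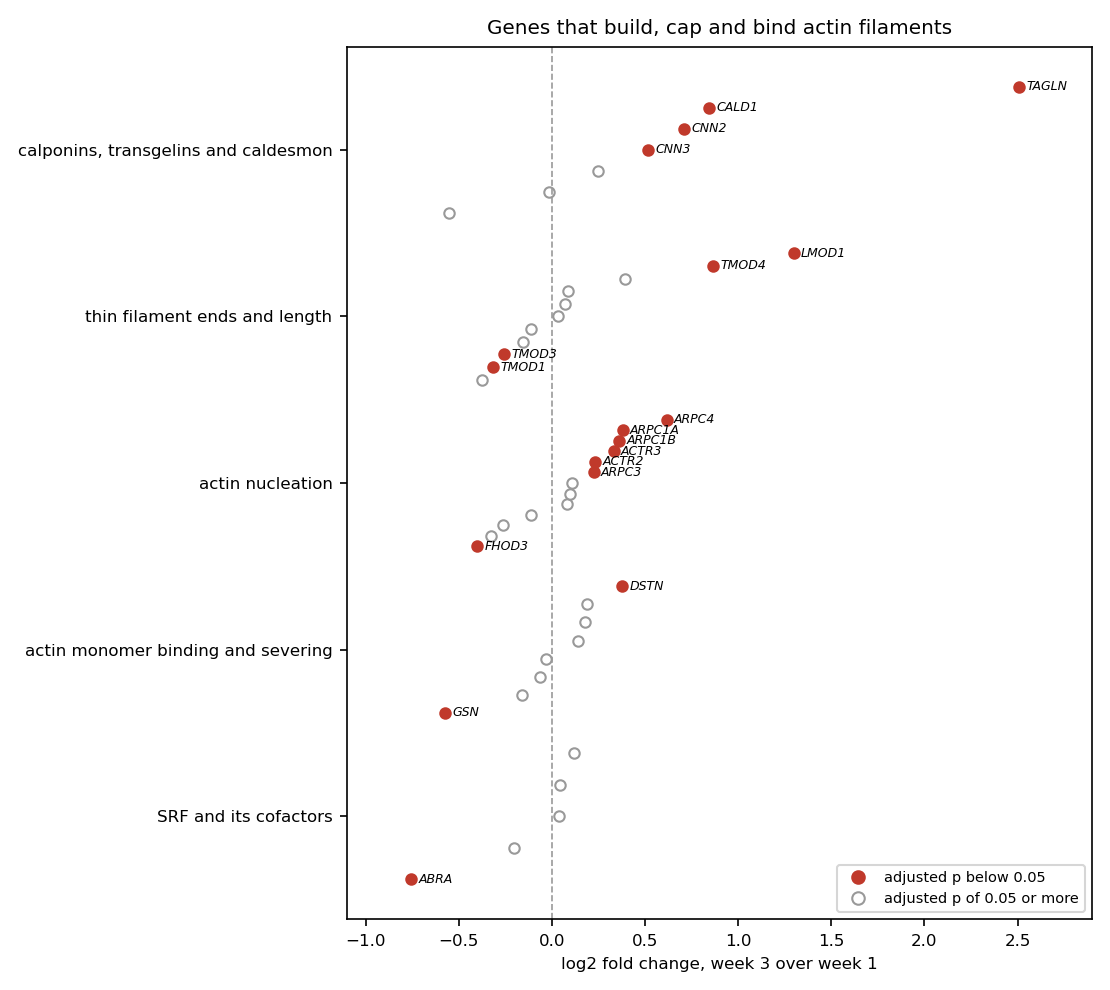
Log2 fold change (week 3 over week 1) of the genes tested in 5 lists of actin-related proteins, 1 point per gene, red and named where the adjusted p was below 0.05 and open otherwise. *TAGLN* lies farthest right at 2.51 and *ABRA* farthest left at -0.76, and the named nucleation genes to the right of 0 lie between 0.22 and 0.62.

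The gene with the most similar pattern to each of the 9 was sought among the tested genes that have a symbol. Patterns were log2 CPM values centred over the 8 tissues, compared by the root mean square difference. *TPM1* lay nearest to *MYL1*, a light chain of fast skeletal myosin, at 0.0305, and *ACTG2* to *MYL2*, a light chain of slow and cardiac myosin, at 0.155. The next genes were almost as near, *ADI1* at 0.0316 for *TPM1* and *ACKR4* at 0.163 for *ACTG2*. *ACTA1* lay nearest to *FAM81A* at 0.110, *ACTC1* to *CLASP2* at 0.0391, *ACTA2* to *CLVS2* at 0.181, and *ACTB* to *MUSTN1* at 0.0367. *TPM2* lay nearest to *GLIS3* at 0.0384, *TPM3* to *LAPTM4A* at 0.0303, and *TPM4* to *ITGB5*, an integrin subunit, at 0.0497. Among the 9 themselves, *ACTB* and *TPM4* were nearest to each other at 0.0953, *TPM1* and *TPM3* at 0.115, *ACTA2* and *ACTG2* at 0.329, and *ACTA1* and *ACTC1* at 0.333. A small distance can also come from genes that vary little. *TPM1* and *TPM3* differed from their own means by 0.0903 and 0.0976, less than from each other. The members of the other pairs differed from their own means by 0.354 to 1.17, more than from each other. These distances rest on 8 tissues that share 2 weeks, and they are given as a description.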

How the data were processed

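RNA of 8 tissues was sequenced on an Illumina NovaSeq. The submitters' processing notes name STAR 2.7.3a, Partek, and the build galGal6 (GRCg6a), and library strand is not given in the sources used here. The authors deposited estimated counts per gene, of which 80.98% were whole, and a normalized signal per gene, FPKM-UQ, for 15394 of 17775 genes. The deposited FPKM-UQ signal equaled the count plus 1 over 1 factor per tissue within 0.000787%.

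Rounded counts were tested in edgeR 4.0.16 under R 4.3.3 (TMM, filterByExpr, quasi-likelihood test, both weeks in 1 fit without a block), with Benjamini-Hochberg adjustment. The standard error was the log2 fold change over the square root of F. Shares, ratios, and FPKM-UQ values were set against each other by exact permutation tests (two-sided) over the 56 splits of the tissues (scipy 1.17.1, numpy 2.4.6, pandas 2.3.3, Python 3.11.15). The total counts were 14368710 to 18902561 per tissue, and the spread between week 1 tissues exceeded counting error for every member.

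The members and lists were chosen with earlier results of these data known. Named genes were every member, the called genes of each list (at most 4 per direction by fold change), and markers set beside a result. The nearest gene with a symbol was also named for each member. Symbols were matched exactly, and *NEB*, *PFN1*, *CFL1*, *DIAPH1*, *MRTFB*, *TTN*, *RYR1*, *CKM*, *TCF21*, and *NPPB* were not analysed here. Alternatives were upper-quartile factors, DESeq2 1.42.0, no filter, limma 3.58.1 on log2(FPKM-UQ + 1) and log2(FPKM-UQ + 0.1), the replicate number as a block, each tissue left out, shares from FPKM-UQ or with *ACTG1* added, and, chosen after seeing the data, library totals alone, the 6 tissues of the block without it, and the week 3 tissues summed.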

Additional observations from a re-analysis of the deposited data

Results flagged for a closer look

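Among 16 sets of 5 week 1 values examined, 2 held a tissue far from the others, and chance gives about 1 in 20 such sets. *ACTG2* had 38.4 FPKM-UQ in tissue 1-1, while the other 4 week 1 tissues had 14.5 to 20.9 FPKM-UQ. *ACTB* held 11.9% of the actin counts in tissue 1-2, while the other 4 held 15.6 to 16.8%. The *ACTB* value of tissue 1-2, 2597 FPKM-UQ, lay inside the week 1 range of 2547 to 3022 FPKM-UQ. *ACTA1* and *ACTC1*, which enter the total, were highest of week 1 in that tissue. In both cases the tissue lay on the same side of every week 3 tissue as the rest of week 1.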

How the results depend on the processing

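*ACTA2*, *ACTG2*, and *ACTB* kept their direction and their call in all 17 alternatives, and *ACTC1* and *TPM4* in all but the one with the week 3 tissues summed. With these summed, 3 of the 9 genes and 522 of all genes were called. *ACTA1* lost its call in 10 alternatives. Across tissues left out in turn, 5 to 6 of the 9 genes and 2119 to 5498 of all genes were called (3367 with all tissues, 5498 without tissue 1-1), and the log2 fold change of *TPM2* ran from -0.0705 to 0.0697, below 0 without tissue 1-1, 1-3, or 3-3. The count over all genes rose without tissue 1-1 and fell, to between 2119 and 2931, without any other tissue. Fewer samples entered each of these fits, and why the counts moved was not tested. Tissues with the same replicate number had correlations of deviations of -0.0102 to 0.0248, within the -0.0509 to 0.0346 of tissues with different numbers. The week 3 tissues lay so close to each other that this check could not decide whether the numbers pair the samples. A fit with the number as a block, on the 6 tissues with shared numbers, called 2064 genes, 5 of the 9 among them (without *ACTA1*, adjusted p = 0.0867), and the same 6 tissues without the block called 2342 genes and again 5. Over 10 alternatives, the difference in the smooth muscle actin share ran from 11.2 to 12.8 percentage points. That in the *ACTB* share ran from 11.8 to 13.6, and both were lowest where *ACTG1* was added. Leaving out 1 tissue could not turn the direction, since the weeks did not overlap, and shares from FPKM-UQ repeat the same counts. These settings show only how far the size of the differences moved. Shares per transcript length were not run, as lengths were not at hand. Depth limits genes with few counts, such as *NKX2-5*, *GATA4*, and *MYH11*, the near-identical actins limit how reads were assigned, and 3 tissues close to each other at week 3 limit every p-value.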
